A study of Rattus norvegicus with 12 samples.

Results

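The 5 genes described here are the metallothionein genes Mt1, Mt2A and Mt3, the metal-responsive transcription factor gene Mtf1 and the zinc exporter gene Slc30a1. They were taken by symbol from the 22714 rows (22264 symbols) of the gene expression table, and for Mt1, which had 2 rows, the row with the higher mean was used. The genes were selected with the levels in these libraries known, so their differences between the groups are given as a description. The calls of a fit over all genes are counted beside the share of all genes called, and are no independent test of them.

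Metallothioneins are small, cysteine-rich proteins that bind zinc and copper in the cytosol. Their genes are switched on by the zinc-sensing transcription factor MTF1, which binds short metal response elements in their promoters, and the plasma membrane zinc exporter ZnT1, encoded by Slc30a1, is another MTF1 target in mouse. In rodent brain, metallothionein 1 and 2 are made mainly by glia and also respond to glucocorticoids, oxidants and STAT3, while metallothionein 3 is a brain-enriched form that was first described as a growth inhibitory factor.

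Traumatic optic neuropathy (TON) was modelled in male Sprague-Dawley rats of 7 to 8 weeks, whose optic nerve was clamped with a force of 40 g for 10 s, 2 mm from the back of the eye, and sham rats had the same operation with no clamping. Retinas were taken 12 h later and pooled from 4 rats per sample, which gave 3 TON samples (4 to 6) and 3 sham samples (1 to 3). From each sample, RNA immunoprecipitated with an antibody against N6-methyladenosine (m6A) and input RNA were sequenced, 12 libraries in all. RNA levels are FPKM (sequenced fragments per gene, scaled to transcript length and library size) of the 6 input libraries, and m6A peaks are stretches that the authors called as enriched over input, with 1 list per sample.

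The fragments counted on the genes of the expression table were estimated at 3163301 to 4759817 per input library. The retinal label was checked against marker genes. Sag, the arrestin of photoreceptors, stood at 2788 to 3275 FPKM in TON libraries and 2250 to 2753 FPKM in sham libraries. Of 10 rod and cone markers tested, 2 (20%) were higher in every TON library than in every sham library and 2 (20%) were lower. Over all genes these shares were 10.8% and 5.33%. Gnat1 was one of the lower markers, at 3072 to 3530 FPKM in TON and 3713 to 3974 FPKM in sham. Markers of other tissues were also found. The summed level of 8 skeletal muscle markers was 4.77 to 68.6 FPKM in TON libraries, with the highest value in TON 5, and 3.57 to 4.38 FPKM in sham libraries. The summed level of 10 ocular surface epithelium markers was 122 to 142 FPKM in TON libraries and 133 to 319 FPKM in sham libraries. Pax6 is also expressed in the retina, and without it the sum was 4.78 to 21.1 FPKM in TON libraries and 15.5 to 209.7 FPKM in sham libraries, with the highest value in sham 1. The summed level of 8 lens markers was 1747 to 2774 FPKM in TON libraries and 2303 to 5475 FPKM in sham libraries, again highest in sham 1. Of the 8, 3 (37.5%) were lower in every TON library than in every sham library, beside 5.33% of all genes. None of these markers was at 0 in all libraries. The part of these tissues in the results was not tested, and values without TON 5 and sham 1 are given beside the 5 genes. Leaving these libraries out does not even out the lens markers. Their sum was 3517 FPKM in sham 2, above every TON library, and 2303 FPKM in sham 3. In bulk retina, a change in the number of cells of a type and a change in RNA per cell cannot be told apart.

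The promoters of the 5 genes are shown first, with their matches to the cores of the metal response element. The 250 bases before the transcription start of each gene's promoter entry were read from RefSeq for the rat assembly GRCr8, in which all 5 genes had an entry. For Mtf1 the last 30 of these bases lie inside the annotated gene, whose range begins before that start, and are not printed. The sequences are shown with the positions of this assembly, which are not those of the deposited files. Each sequence runs 5′ to 3′ on the strand of its gene, and capitals mark the metal response element cores TGCACNC and TGCGCNC on either strand. The windows are chr19:10832976-10833225 (Mt1, minus strand), chr19:10838709-10838958 (Mt2A, minus strand), chr19:10856081-10856330 (Mt3, minus strand), chr5:142346804-142347023 (Mtf1, plus strand) and chr13:106021769-106022018 (Slc30a1, plus strand).
Mt1: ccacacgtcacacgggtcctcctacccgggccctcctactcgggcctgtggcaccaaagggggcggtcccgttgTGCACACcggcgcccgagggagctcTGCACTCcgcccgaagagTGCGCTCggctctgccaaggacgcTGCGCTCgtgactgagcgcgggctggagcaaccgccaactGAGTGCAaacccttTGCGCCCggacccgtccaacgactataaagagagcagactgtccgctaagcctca
Mt2A: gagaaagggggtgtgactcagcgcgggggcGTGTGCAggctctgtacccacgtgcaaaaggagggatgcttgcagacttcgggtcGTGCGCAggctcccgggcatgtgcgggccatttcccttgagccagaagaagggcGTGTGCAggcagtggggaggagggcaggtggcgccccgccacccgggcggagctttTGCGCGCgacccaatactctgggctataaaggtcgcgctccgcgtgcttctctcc
Mt3: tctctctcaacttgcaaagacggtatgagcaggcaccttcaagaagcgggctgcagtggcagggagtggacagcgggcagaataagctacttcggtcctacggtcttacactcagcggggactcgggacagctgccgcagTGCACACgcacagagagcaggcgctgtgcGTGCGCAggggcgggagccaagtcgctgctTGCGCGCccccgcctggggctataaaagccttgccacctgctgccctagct
Mtf1: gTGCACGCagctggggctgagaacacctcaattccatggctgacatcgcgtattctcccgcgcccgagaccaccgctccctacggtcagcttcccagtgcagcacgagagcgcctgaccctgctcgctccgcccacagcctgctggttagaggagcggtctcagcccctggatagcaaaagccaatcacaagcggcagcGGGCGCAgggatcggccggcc
Slc30a1: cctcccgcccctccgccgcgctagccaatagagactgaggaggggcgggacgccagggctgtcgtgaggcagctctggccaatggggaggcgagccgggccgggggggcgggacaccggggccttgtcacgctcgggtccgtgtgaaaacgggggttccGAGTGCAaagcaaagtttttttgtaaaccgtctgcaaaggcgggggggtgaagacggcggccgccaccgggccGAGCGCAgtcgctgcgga

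The search covered 250 bases before to 50 bases after the start, and every match lay before it. The Mt1 window held 6 cores, 5 on the sense strand and 1 on the antisense strand, between bases -176 and -49 counted from the start. The Mt2A window held 4 cores between bases -220 and -49, the Mt3 window held 3 between bases -110 and -45, and the Mtf1 and Slc30a1 windows held 2 each. Mt1 and Mt2A both had a core at bases -55 to -49, and Mt3 had one at bases -51 to -45. Of 33469 RefSeq promoter windows of the same length, 24.2% held at least 1 core, 6.36% at least 2, 1.68% at least 3, 0.439% at least 4 and 0.0388% at least 6. TGCACNC alone was found in 12.2% of all windows and TGCGCNC alone in 14.1%. Each of the 3 metallothionein windows held a number of cores that at most 1.68% of all windows reached. MTF1 is known to bind such elements in metallothionein promoters, so this number is a description and no independent finding. G and C made up 65%, 63.7% and 62.7% of the searched bases in Mt1, Mt2A and Mt3. The share was taken over all windows, whatever their base composition. A match is a run of letters and not a measured binding site.

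Other motifs were searched in the same windows. The Sp1 box GGGCGG was found in all 5 windows and in 33.1% of all windows, and 1 of its copies in Mt1 (bases -145 to -140) shared a base with a metal response core. The antioxidant element core TGACNNNGC was found in the windows of Mt1, Mt2A, Mtf1 and Slc30a1, with 2 copies in Mtf1, and in 12.1% of all windows. The STAT element TTCNNNGAA was found in none of the 5 windows and in 8.87% of all windows.

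**Figure D1:**
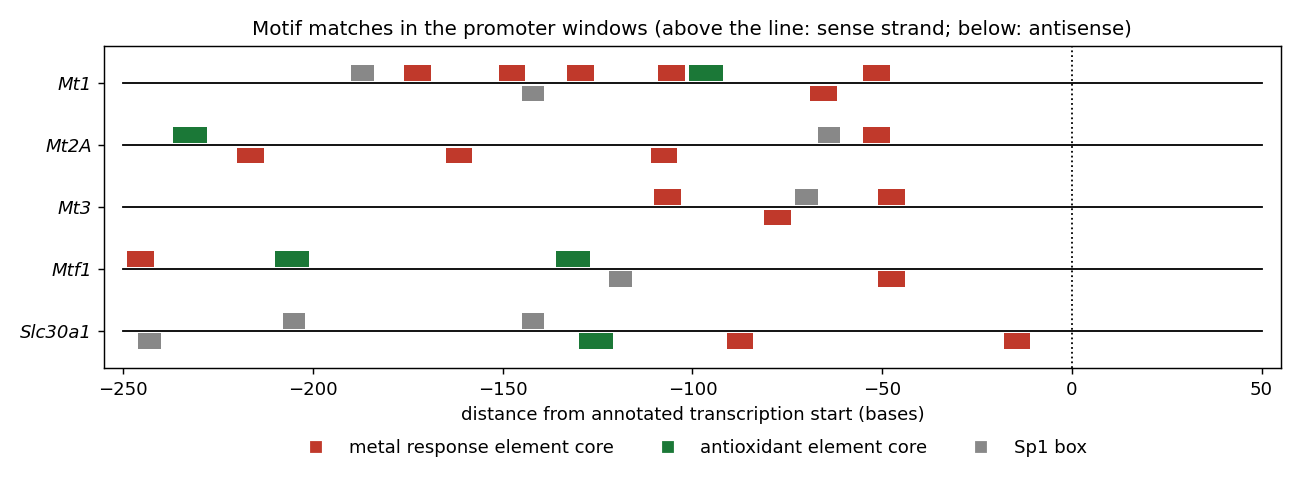
Motif matches in the promoter windows of the 5 genes, plotted by distance from the annotated transcription start in bases, with sense matches above and antisense matches below each line. Metal response element cores (red) number 6 in Mt1, 4 in Mt2A, 3 in Mt3 and 2 each in Mtf1 and Slc30a1, and none lies after the start.

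In the deposited files the 3 metallothionein genes lie side by side on the minus strand of chromosome 19: Mt1 at chr19:11277133-11278149, Mt2A at chr19:11283094-11283867 and Mt3 at chr19:11300015-11301422, with the epithelial form Mt4 beyond Mt3. The gaps are 4944 bases between Mt1 and Mt2A, 16147 bases between Mt2A and Mt3 and 13650 bases between Mt3 and Mt4. Mtf1 lies at chr5:146568010-146612766 and Slc30a1 at chr13:115236547-115240420, both on the plus strand. Their genome build was not given in the sources used here.

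Mt2A had the largest and the most uniform difference of the 5 genes. Its RNA was at 501, 554.3 and 514.5 FPKM in TON samples 4, 5 and 6, against 50.12, 37.56 and 49.07 FPKM in sham samples 1, 2 and 3. Every TON library was thus far above every sham library, and the 3 TON values lay within 1.11 times of each other. The means were 523 ± 27.7 FPKM in TON and 45.6 ± 6.97 FPKM in sham (SD, n = 3 each), an 11.5-fold ratio. About 744 fragments in TON libraries and 74 in sham libraries lay behind these levels. With each library left out in turn, the fitted log2 change of FPKM + 1 lay between 3.37 and 3.58, around 3.50 with all libraries, and it was 3.53 without TON 5 and sham 1.

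Mt1 was also higher in every TON library, with a wider spread. Its RNA was at 165.3, 340.6 and 221.1 FPKM in TON samples 4, 5 and 6, against 21.22, 40.6 and 67.16 FPKM in sham samples 1, 2 and 3. The groups did not overlap, although sham 3 had 3.17 times the level of sham 1 and TON 5 had 2.06 times that of TON 4. The means were 242 ± 89.5 FPKM in TON and 43.0 ± 23.1 FPKM in sham (SD, n = 3 each), a 5.64-fold ratio, from about 377 fragments in TON libraries and 73 in sham libraries. TON 5 was also the library with the highest skeletal muscle markers and sham 1 that with the highest ocular surface markers. The fitted log2 change was 2.55 with all libraries, 2.13 to 2.94 with each left out in turn and 1.85 without both TON 5 and sham 1.

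Mt3 did not follow its neighbours. Its RNA was at 10.94, 71.28 and 43.08 FPKM in TON samples 4, 5 and 6, against 58.57, 57.54 and 78.61 FPKM in sham samples 1, 2 and 3. The groups overlapped, and the TON libraries differed among themselves more than the groups did, with TON 4 the lowest of all 6. The value of TON 4 rests on 4 fragments, for which the exact 95% Poisson interval is 2.98 to 28 FPKM, an interval of counting error only. This interval lies below the level of every other library, but it overlaps the interval of TON 6 (25.9 to 67.3 FPKM). The means were 41.8 ± 30.2 FPKM in TON and 64.9 ± 11.9 FPKM in sham (SD, n = 3 each). The fitted log2 change was -0.96 with all libraries, -0.21 without TON 4, -1.51 without TON 5 and -1.57 without TON 5 and sham 1, so its size rested on which TON library was left out.

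Slc30a1, the zinc exporter, was at 18.81, 26.56 and 21.58 FPKM in TON samples 4, 5 and 6, against 15.52, 15.04 and 17.28 FPKM in sham samples 1, 2 and 3. The groups did not overlap, but the gap between the lowest TON and the highest sham library was small. The means were 22.3 ± 3.93 FPKM in TON and 16.0 ± 1.18 FPKM in sham (SD, n = 3 each), a ratio of 1.399, and the fitted log2 change was 0.45. It was 0.30 without TON 5 and sham 1.

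Mtf1, the zinc sensor itself, was the lowest of the 5 genes. Its RNA was at 2.216, 2.996 and 1.469 FPKM in TON samples 4, 5 and 6, against 1.662, 2.097 and 1.721 FPKM in sham samples 1, 2 and 3. The groups overlapped, with the highest and the lowest library both in TON. The means were 2.23 ± 0.764 FPKM in TON and 1.83 ± 0.236 FPKM in sham (SD, n = 3 each). The fitted log2 change of 0.17 became -0.0013 without TON 5 and -0.043 without TON 5 and sham 1, so its direction was not stable.

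**Figure D2:**
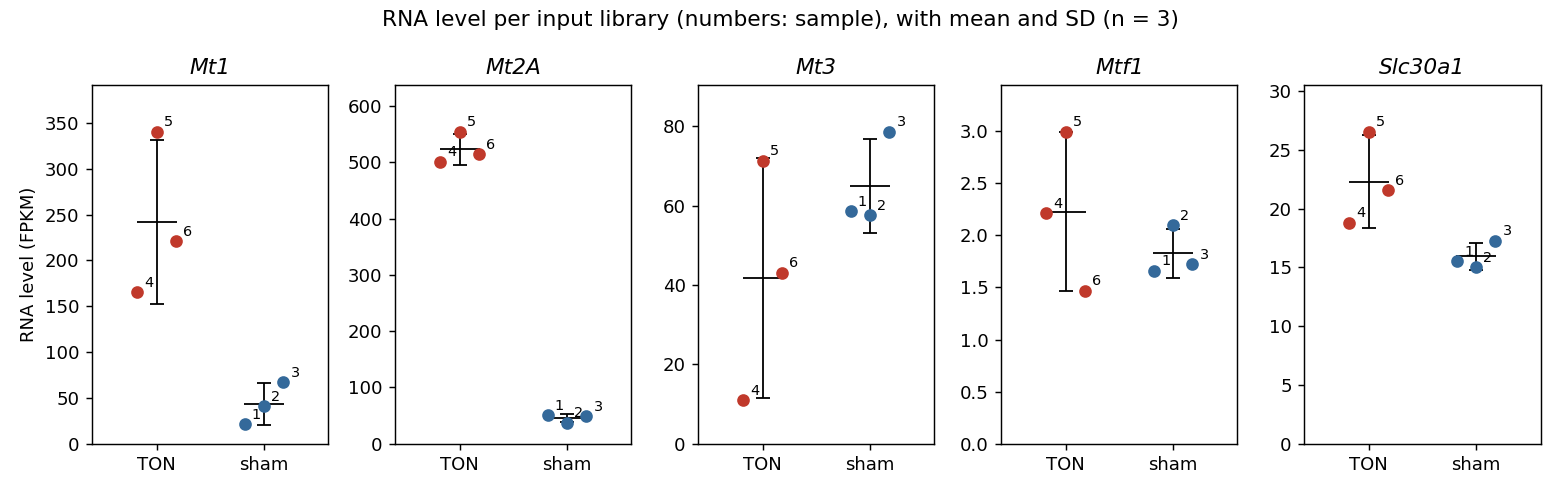
RNA level in FPKM of each of the 5 genes in the 6 input libraries, TON left and sham right, with 1 point per library (the number is the sample), the mean as a bar and the SD as an error bar (n = 3). The TON points of Mt2A lie at 501 to 554.3 FPKM above sham points of 37.56 to 50.12 FPKM, while the points of Mt3 and Mtf1 overlap between the groups.

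All 5 genes passed the filter of the fit over all genes (TON or sham mean no lower than 0.1 FPKM). Of the 5, 1 gene (Mt2A) was called higher in TON at an adjusted p under 0.05, where 0.0377% of the 15900 genes tested were called higher by limma, and 0 were called lower, where 0.00629% of all genes were. In 3 of the 5 (Mt1, Mt2A and Slc30a1) every TON library was above every sham library, which held for 10.8% of all genes, and in 0 of the 5 was every TON library below every sham library, which held for 5.33% of all genes. On the fragment numbers that the authors scaled between libraries, 2 of the 5 (Mt1 and Mt2A) were called higher, beside 0.201% of all genes, and 0 lower, beside 0.0755%. As the genes were chosen on this contrast, the counts describe them and support nothing further.

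The make-up of the metallothionein RNA differed between the groups. In sham retinas Mt3 was the most abundant of the 3 in each library. Its range lay above that of Mt2A and overlapped that of Mt1, and the ranges of Mt1 and Mt2A overlapped. In TON retinas Mt2A came first, Mt1 second and Mt3 last, with no overlap of their ranges, and the range of Slc30a1 lay within that of Mt3. Mtf1 was the lowest in all 6 libraries. The summed level of the 3 genes was 677.3, 966.2 and 778.7 FPKM in TON samples 4, 5 and 6, against 129.9, 135.7 and 194.8 FPKM in sham samples 1, 2 and 3. Mt2A made up 57.4% to 74.0% of this sum in TON libraries and 25.2% to 38.6% in sham libraries, and Mt3 made up 1.62% to 7.38% in TON libraries and 40.4% to 45.1% in sham libraries. The ratio of Mt2A to Mt1 was 3.03, 1.63 and 2.33 in TON samples 4, 5 and 6 and 2.36, 0.925 and 0.731 in sham samples 1, 2 and 3, so it overlapped between the groups through sham 1.

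**Figure D3:**
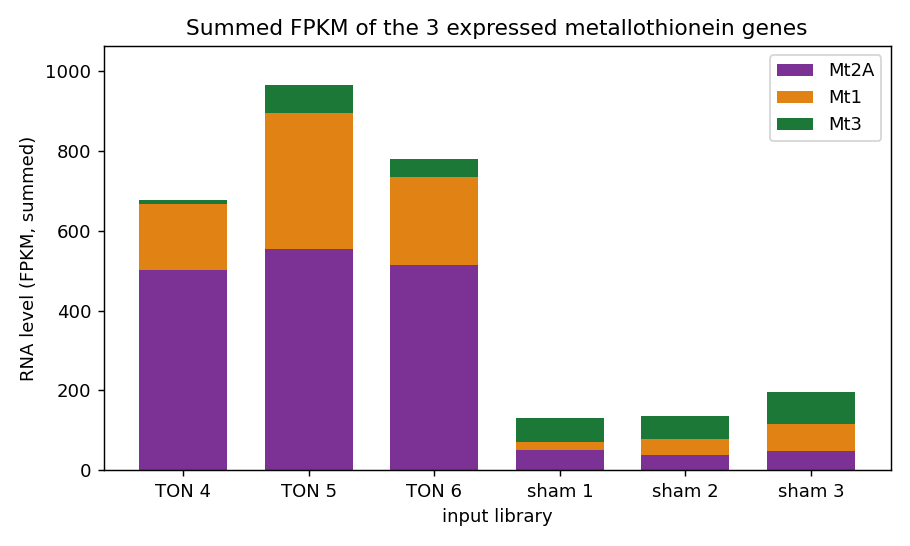
Stacked FPKM of Mt2A, Mt1 and Mt3 in each input library, the 3 TON libraries left of the 3 sham libraries. The bars reach 677.3 to 966.2 FPKM in TON and 129.9 to 194.8 FPKM in sham, and the Mt3 part is the smallest part of each TON bar.

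The other metallothionein rows were checked next. Mt4 and the row named Mt1m, which RefSeq lists as a pseudogene, were listed at 0 in all 6 libraries. A second row named Mt1, on chromosome 17, had 14.7, 30.1 and 10.2 FPKM in TON samples 4, 5 and 6, against 5.27, 6.45 and 1.85 FPKM in sham samples 1, 2 and 3, from 1 to 18 fragments per library. Its libraries did not overlap between the groups either, and it was below the main row in every library.

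The 2 Mt1 rows carry different Ensembl identifiers (ENSRNOG00000025764 on chromosome 19 and ENSRNOG00000038047 on chromosome 17) and are annotated in the file with the same NCBI gene, and RefSeq GRCr8 lists Mt1 only on chromosome 19. FPKM per scaled fragment, which falls with transcript length, was 1.907 for the main row and 1.894 for the chromosome 17 row in TON 4, and as close in the other libraries. How the authors' counting divides reads between near-identical copies is not stated, so the level of each Mt1 row is uncertain, and with both rows summed the fitted log2 change was 2.47. The chromosome 17 row also shares its locus with Dclre1c on the opposite strand, and whether strand was used in counting is not stated.

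Of the genes that flank the cluster within 100 kb, Nup93, Bbs2, Ogfod1 and Nudt21 were listed. None was called by limma, which called 0.0377% of all genes higher and 0.00629% lower. Nudt21, a pre-mRNA cleavage factor, stood at 32.31, 32.24 and 24.9 FPKM in TON samples 4, 5 and 6, against 21.18, 19.24 and 17.3 FPKM in sham samples 1, 2 and 3 (limma adjusted p = 0.323). It shares its locus with Ogfod1 on the opposite strand, which stood at 10.53 to 13.55 FPKM in TON and 10.34 to 18.7 FPKM in sham (limma adjusted p = 0.718). Nup93 and Bbs2, part of the nuclear pore and of the ciliary BBSome, had adjusted p of 0.834 and 0.801 by limma.

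The level patterns most like those of the metallothioneins were taken from 8425 genes over the 6 libraries by Pearson's r of log2(FPKM + 1), as a description, since all points share the group difference and the libraries. For Mt1 they were Asb6 (r = 0.996), Ccdc64 (0.994), Adamts1 (0.985), Car7 (0.983) and Rps6ka2 (0.983). Adamts1, a secreted protease, stood at 29.0, 40 and 33.6 FPKM in TON samples 4, 5 and 6, against 14.5, 15 and 19.5 FPKM in sham samples 1, 2 and 3. For Mt2A they were Commd4 (0.995), Glrx2 (0.995), LOC100912475 (0.994), Phb2 (0.994) and Serpina3n (0.993). Serpina3n, an acute phase serine protease inhibitor, stood at 24.2, 26.9 and 21.7 FPKM in TON samples 4, 5 and 6, against 2.61, 1.79 and 3.83 FPKM in sham samples 1, 2 and 3. For Mt3 they were Kcnj2 (0.989), Camk2n2 (0.985), mrpl11 (0.983), RGD1359508 (0.978) and Setd2 (0.978), all of which had their lowest value in TON 4.

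Next, 81 other genes of zinc, copper and the known inducers of metallothioneins were read from the same fit, which tested 75 of them. By limma, 0 of the 75 were called higher and 0 lower in TON, beside 0.0377% and 0.00629% of all genes. At an unadjusted p under 0.05, 14 were higher and 4 lower, and over all genes 1123 and 523 of 15900 were. In 15 of the 75 every TON library was above every sham library and in 4 every one was below (20% and 5.33%, beside 10.8% and 5.33% of all genes). Their median fitted log2 change was 0.22, against 0.058 over all genes tested. The fitted log2 changes of Mt2A (3.50) and Mt1 (2.55) were above that of every other zinc transporter and reported MTF1 target tested, of which the importer Slc39a11 had the highest at 1.03 (limma adjusted p = 0.446). In the inducer lists, Socs3 (3.16) and Hmox1 (2.65) lay above Mt1. Genes named below beyond the 2 most abundant of each list were chosen after their values were seen.

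No zinc transporter was called by limma, which called only 0.0377% of all genes higher and 0.00629% lower. Of 7 other ZnT exporters tested, 2 (28.6%) had groups that did not overlap, both higher in TON, beside 10.8% of all genes. These were Slc30a4, which loads zinc into vesicles, at 22.91 to 28.2 FPKM in TON and 17.74 to 21.86 FPKM in sham (limma adjusted p = 0.508), and the synaptic vesicle transporter Slc30a3 at 4.886 to 6.408 FPKM in TON and 2.328 to 3.774 FPKM in sham (adjusted p = 0.428). The most abundant exporter, Slc30a9 of mitochondria, stood at 63.89 to 80.13 FPKM in TON and 63.24 to 74.81 FPKM in sham (adjusted p = 0.836). Of 13 ZIP importers tested, 2 (15.4%) had groups apart, again higher in TON, beside 10.8% of all genes. The plasma membrane importer Slc39a1 was one, at 19.37 to 21.63 FPKM in TON and 10.27 to 14.33 FPKM in sham (adjusted p = 0.305). Slc39a7, which releases zinc from the endoplasmic reticulum, and Slc39a6 had fitted log2 changes of -0.018 and 0.0049 (adjusted p = 0.964 and 0.993). The medians were 0.23 for the ZnT list and 0.15 for the ZIP list.

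Of 7 other genes reported as MTF1 targets in mouse, 2 (28.6%) had groups apart, both higher in TON, beside 10.8% of all genes. The median was 0.38. Gclc, the catalytic subunit of the first enzyme of glutathione synthesis, stood at 24, 21.55 and 22.14 FPKM in TON samples 4, 5 and 6, against 13.3, 15.39 and 15.02 FPKM in sham samples 1, 2 and 3 (fitted log2 change 0.60, limma adjusted p = 0.264). Ndrg1 stood at 185.9 to 203.7 FPKM in TON and 161.1 to 170.3 FPKM in sham (0.26, adjusted p = 0.405). The selenoprotein gene Sepw1 stood at 4.925 to 47.38 FPKM in TON and 14.15 to 36.92 FPKM in sham, with both extremes in TON (adjusted p = 0.851). None of the list had a fitted log2 change near the 3.50 of Mt2A.

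Of 10 copper genes tested, 2 (20%) had groups apart, both higher in TON, beside 10.8% of all genes. One was the copper pump Atp7a at 19.33 to 27.83 FPKM in TON and 9.19 to 13.63 FPKM in sham (fitted log2 change 0.93, limma adjusted p = 0.264). On scaled fragments the change of Atp7a was only 0.19 (adjusted p = 0.629). Sod1, the copper and zinc superoxide dismutase, had a fitted log2 change of 0.084 (adjusted p = 0.768), and Cox17, the copper chaperone of cytochrome oxidase, one of -0.23 (adjusted p = 0.645). The median of the list was 0.24.

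The lists of other inducers were read beside them. Of 10 oxidant response genes, 2 (20%) had groups apart, both higher in TON, beside 10.8% of all genes, and the median was 0.30. Hmox1, heme oxygenase 1, was one of them, at 4.892, 5.646 and 26.34 FPKM in TON samples 4, 5 and 6, against 1.496, 0.7494 and 0 FPKM in sham samples 1, 2 and 3 (limma adjusted p = 0.305). The more abundant Txnrd1, a thioredoxin reductase, had an adjusted p of 0.575. Of 8 glucocorticoid targets, none had groups apart and the median was 0.12, with Sgk1 at -0.15 (adjusted p = 0.651) and Klf9 at -0.032 (adjusted p = 0.955).

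Among the 8 metal and inducer lists, that of STAT3 and its cytokines had the highest median. Of 12 genes tested, 5 (41.7%) had groups apart, all higher in TON, beside 10.8% of all genes, and the median was 0.98. Stat3 stood at 29.92, 35.53 and 42.45 FPKM in TON samples 4, 5 and 6, against 16.25, 16.91 and 17.92 FPKM in sham samples 1, 2 and 3 (fitted log2 change 1.02, limma adjusted p = 0.118). Socs3, its feedback inhibitor, stood at 6.512, 6.299 and 18.31 FPKM in TON samples 4, 5 and 6, against 0, 0.484 and 0 FPKM in sham samples 1, 2 and 3 (adjusted p = 0.1). The kinase gene Jak1 and the receptor gene Lifr, at -0.0013 and -0.16 on the log2 scale, had adjusted p of 0.996 and 0.695. On scaled fragments Stat3 and Socs3 were called higher by limma (adjusted p = 0.00301 and 0.0253).

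Among the same 8 lists the heat shock list had the lowest median. Of 8 genes tested, 4 (50%) had groups apart, all lower in TON, beside 5.33% of all genes, and the median was -0.71. Hsp90aa1, the inducible cytosolic HSP90, stood at 642.9, 554.8 and 593.3 FPKM in TON samples 4, 5 and 6, against 1022, 1383 and 945.4 FPKM in sham samples 1, 2 and 3 (fitted log2 change -0.88, limma adjusted p = 0.203, and 0.0232 on scaled fragments). Hspa1a stood at 127 to 175.8 FPKM in TON and 157 to 668.6 FPKM in sham, with the highest value in sham 1 (adjusted p = 0.59). The level of Hspa1a is uncertain because it can share reads with its near-identical copy Hspa1b.

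**Figure D4:**
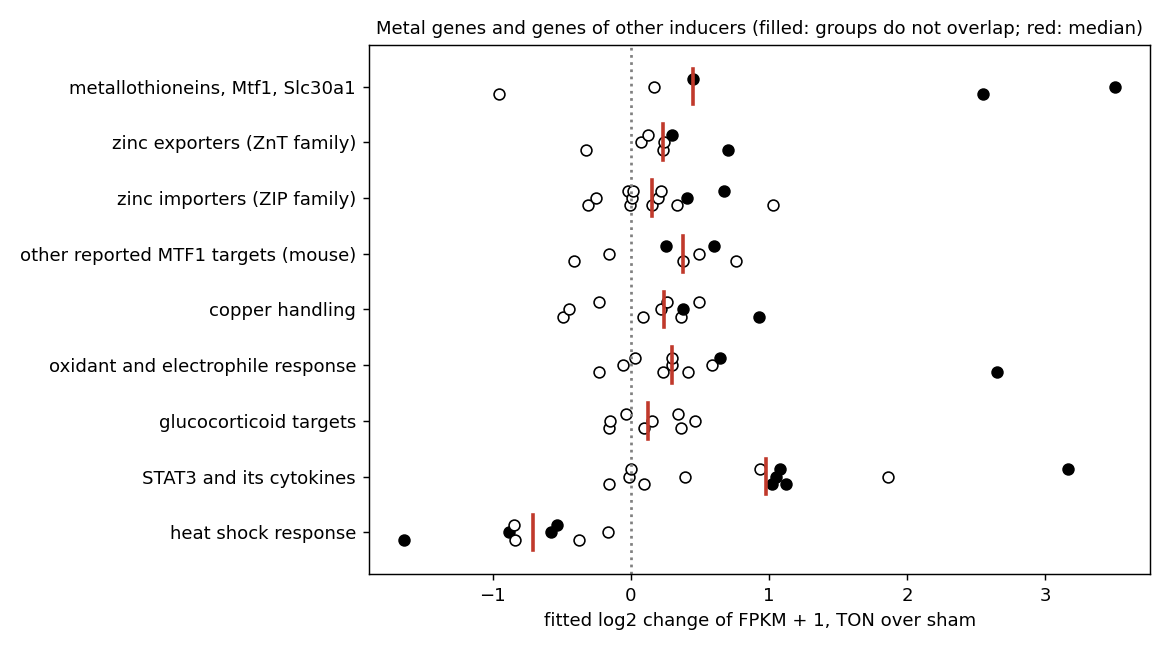
Fitted log2 change of FPKM + 1, TON over sham, for the 5 genes and for 8 lists of metal genes and genes of other inducers, with 1 point per gene. Filled points have groups that do not overlap and the red bar is the list's median, which lies at 0.98 for STAT3 and its cytokines and at -0.71 for heat shock genes.

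Markers of the glia that could hold metallothionein RNA were measured in the same libraries. The summed level of 10 Muller glia markers was 2528 to 2738 FPKM in TON and 2409 to 2520 FPKM in sham, and that of 6 astrocyte markers was 155 to 181.8 FPKM in TON and 126.3 to 188.8 FPKM in sham. Of 5 astrocyte markers tested, 3 had a fitted log2 change above 0, as had 9329 of the 15900 genes tested. Every TON library was above every sham library in 2 of the 5 (40%) and in 2 of 10 Muller glia markers (20%), beside 10.8% of all genes. In 0 markers of either list was every TON library below every sham library, beside 5.33% of all genes. Gfap, the intermediate filament of reactive glia, was called higher in TON by limma (adjusted p = 0.0102). It stood at 39.05, 36.46 and 31 FPKM in TON samples 4, 5 and 6, against 10.14, 7.278 and 9.577 FPKM in sham samples 1, 2 and 3. Slc14a1 was at 10.97 to 16.01 FPKM in TON and 3.617 to 3.892 FPKM in sham (limma adjusted p = 0.103). S100b and Gja1 had fitted log2 changes of -0.12 and -0.32 (limma adjusted p = 0.831 and 0.614). None of the Muller glia markers was at 0 in all libraries, and the part of these cells in the metallothionein levels was not tested.

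The m6A peaks of the 5 genes were then read from the 6 lists, which held 79857 peaks in 24605 regions, where peaks that share at least 1 base form a region. The 5 genes had 24 peaks in 9 regions, with 8, 2 and 6 peaks in the lists of TON samples 4, 5 and 6 and 4, 3 and 1 in those of sham samples 1, 2 and 3. The numbers overlapped between the groups. Mt2A, whose RNA differed most, had 0 peaks in every list. The score is minus 10 times the log10 of the p-value of the peak caller, and as the depth of the immunoprecipitated libraries is unknown, values of different lists are set side by side as a description, with the rank of the peak within its list.

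The constant feature was a peak in Mtf1. Of all regions, 21.4% had a peak in all 6 lists, and of the 9 regions of these genes it was 1, the 456 bases at chr5:146570071-146570526. Its fold enrichment over input was 30.78, 17.73 and 25 in TON samples 4, 5 and 6 and 20.82, 19.58 and 15.48 in sham samples 1, 2 and 3, so the groups overlapped. It ranked 75, 29 and 43 by score in the TON lists of 14233, 13102 and 12424 peaks, and 417, 35 and 1582 in the sham lists of 13854, 12822 and 13422 peaks. The false discovery rate given by the authors was 5.56% to 13.7% in TON lists and 3.3% to 23.8% in sham lists. Mtf1 had 4 further regions, each with a peak in at most 3 lists and with 3.6-fold to 7.4-fold enrichment. Of its 13 peaks, 9 (69.2%) were in TON lists, which held 49.8% of the peaks of all genes. TON 4 alone had 5 of the 9 and TON 5 had 1, the same number as sham 2 and sham 3.

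Slc30a1 had 2 regions, one that starts at the 5′ end of its locus and is 791 bases long, and one of 1819 bases that ends at its 3′ end. The 3′ region (chr13:115238602-115240420) was in the lists of TON 4 and TON 6 with 12.72-fold and 16.48-fold enrichment and in those of sham 1 and sham 2 with 4.68-fold and 6.77-fold. It was in neither the TON 5 nor the sham 3 list. By score within its list it ranked 2521 of 14233 in TON 4 and 2126 of 12424 in TON 6, against 13465 of 13854 in sham 1 and 6909 of 12822 in sham 2. The 5′ region (chr13:115236547-115237337) was in the lists of TON 4, TON 6 and sham 1.

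The peaks named Mt1 were all on chromosome 17 and none lay in the main Mt1 row on chromosome 19. They had the same 390 bases (chr17:80437125-80437514) in all 3 TON lists and in no sham list, a pattern seen in 1.67% of all regions. Fold enrichment was 6.17, 5.31 and 12.02 in TON samples 4, 5 and 6, at false discovery rates of 61.3%, 46.4% and 61.1%, and the peaks ranked 14169 of 14233, 9893 of 13102 and 8401 of 12424 by score, in the lower part of each list. Only TON 6 kept this peak at a score of at least 100, and none kept it in the top 50% of its list. The input RNA of the same row rested on 5 to 18 fragments in TON libraries and 1 to 4 in sham libraries, and the part of this difference in the peak pattern was not tested. Peaks named Dclre1c, the gene on the opposite strand of this locus, were also listed at other positions of the locus. They were in the lists of TON 4 (5.56-fold) and TON 6 (7.97-fold) and in no sham list. To which of the 2 genes each peak belongs was not tested.

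Mt3 had a single peak, in the list of sham 2, that covered the first 94 bases of its locus (chr19:11301329-11301422) with 5.33-fold enrichment at a false discovery rate of 65.2%. Peak bounds were identical in every list that held a region of these genes, as they were in 85.8% of the 17664 regions of all genes with a peak in 2 or more lists.

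**Figure D5:**
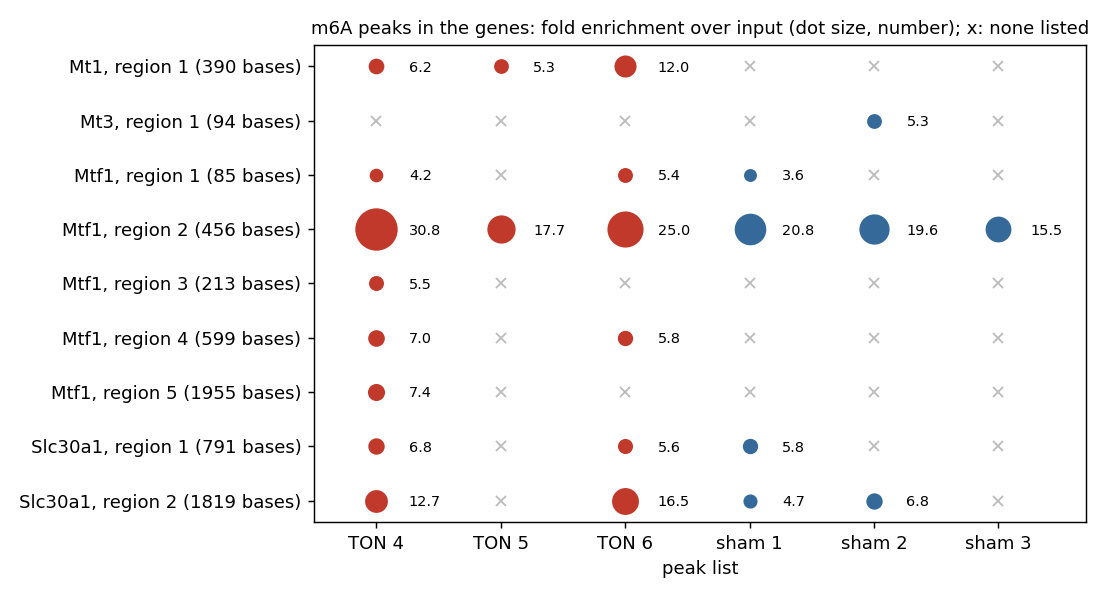
m6A peaks in the 9 regions of Mt1, Mt3, Mtf1 and Slc30a1 across the 6 peak lists, TON lists left of sham lists, with the fold enrichment over input as dot size and number and a cross where no peak is listed. Region 2 of Mtf1 has a peak in all 6 lists at 15.5-fold to 30.8-fold, the Mt1 region has one in the TON lists only, and Mt2A has no row because it has no peak.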

How the data were processed

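Per the submitters' processing notes, reads were trimmed with cutadapt 1.9.3 and aligned with HISAT2 2.0.4, and gene values were made with Cufflinks and Cuffdiff. The authors deposited FPKM for each gene and input library, which carry no count model, and beside it a signal that holds fragments scaled between libraries by the authors. Dividing this signal by the smallest step of each library gave whole numbers for 97.45% to 97.91% of its low values (under 50 steps, within 0.02 of a step), and these are the estimated fragments. The authors called peaks with MACS in each sample on its own and deposited, for each peak, its fold enrichment (a ratio of immunoprecipitate to input), its score and, as a percent, its false discovery rate. The study's methods name a human build for these rat data. Columns of other samples: 0. Per the study's methods, the replicates are biological and each is a pool of rats. The labels number them 1 to 3 in sham and 4 to 6 in TON.

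All genes with a group mean no lower than 0.1 FPKM (15900) were fitted with limma 3.58.1 in R 4.3.3 on log2(FPKM + 1), with a variance trend on intensity, Benjamini-Hochberg adjusted p-values and a threshold of 0.05. The pseudocount of 1 understates the change of low genes. The fit was tested on simulated data. Starts of deposited positions count from 0 and are printed from 1. Other steps used Python 3.11.15, pandas 2.3.3, NumPy 2.4.6, SciPy 1.17.1 and matplotlib 3.10.9. The genes and the lists (those of metal genes, other inducers and cell type markers) were chosen with earlier results of these data known. Named were the 5 genes, from each metal or inducer list up to 4 called genes or otherwise the 2 of highest mean FPKM, and for each metallothionein the 5 genes of most similar pattern among genes that averaged 1 FPKM or more in TON or sham and had an SD of log2(FPKM + 1) of at least 0.2. One gene that this rule names is not reported here, and a planned comparison of the proteins was not analysed here. The alternatives tried were other pseudocounts, filters and scalings, left-out libraries and stricter peak sets.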

Additional observations from a re-analysis of the deposited data

How the results depend on the processing

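No paired analysis was possible because the TON and sham samples share no replicate number. Over all genes, limma called 6 genes higher and 1 lower in TON. With no filter 1 was higher, on scaled fragments 32 were higher and 12 lower, and with each library left out 2 (without sham 1) to 9 (without TON 5) were higher and 1 to 7 (without sham 3) lower. Without sham 1 and TON 5, chosen after seeing the data, 3 were lower. Of the other metal and inducer genes, 2 were called higher (Stat3 and Socs3) and 1 lower (Hsp90aa1) on scaled fragments, and 0 to 1 lower with each library left out (Dnajb1 without sham 3). The cause of these differences was not tested. Mt2A was called under all 17 settings, Mt1 under 1 and Mt3, Mtf1 and Slc30a1 under 0. The log2 change of Mt1 was 1.85 without sham 1 and TON 5.

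Among named genes with changes near 0 the sign turned. With median centring Slc30a9 was at -0.0101 and Slc39a6 at -0.0759, and with quantile normalization Slc39a6 was at -0.0607. Without sham 1 and TON 5, Slc30a9 was at -0.00522, Slc39a7 at 0.0325, Slc39a6 at -0.0849 and Sepw1 at 0.0637. With each library left out, Slc30a9 ranged between -0.00196 and 0.159, Slc39a7 between -0.0695 and 0.0256, Slc39a6 between -0.0983 and 0.144, Sepw1 between -1.09 and 0.43, Klf9 between -0.19 and 0.098 and Jak1 between -0.04 and 0.0304. The 9 m6A regions of the 5 genes became 2 in the top 50% of each list and 5 at a score of at least 100. Count tests planned on recovered reads were not run. Depth limits the Mt3 level in TON 4 (4 fragments) and the chromosome 17 row of Mt1 (1 to 18 fragments per library).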
